A study of Mus musculus with 13 samples.

Results

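Parvalbumin interneurons are inhibitory neurons that hold the calcium-binding protein parvalbumin (gene Pvalb) and fire at high rates. They were picked here from single-nucleus RNA profiles of the mouse hippocampus by a rule on UMI counts, where a UMI (unique molecular identifier) stands for 1 captured RNA molecule. A nucleus was taken when it held at least 500 genes, at most 5% mitochondrial UMIs, at least 3 UMIs of Gad1 and Gad2 together, at least 2 UMIs of Pvalb, fewer than 3 UMIs of Sst and fewer than 2 UMIs of Vip. The rule found 156 parvalbumin nuclei among 105427 retained barcodes, which is 0.148% of all barcodes and 3.19% of the 4891 nuclei that passed the Gad1 and Gad2 threshold (Gad nuclei). The same gate with Sst or Vip in place of Pvalb gave 505 Sst nuclei and 327 Vip nuclei, which served for comparison.

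Gad1 and Gad2 encode the glutamic acid decarboxylases that make GABA. In the hippocampus, parvalbumin cells include basket cells, which contact the cell bodies of principal neurons, and axo-axonic cells, which contact the axon initial segment. They share an origin in the medial ganglionic eminence with Sst cells, which contact dendrites, while Vip cells come from the caudal ganglionic eminence and mostly contact other interneurons. Parvalbumin cells are known for potassium channels that close quickly, for synaptotagmin-2 at their terminals, for perineuronal nets and for a high energy use.

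Nuclei came from the whole frozen hippocampus of 13 female mice of a hybrid strain labelled C3HB6F1, with 1 library per mouse. The young group fed ad libitum was 5 months old (n = 3) and the old group fed ad libitum was 24 months old (n = 3, numbered 1, 2 and 4). Both restricted groups were also 24 months old. In the acute group dietary restriction began at 20 months (n = 3), and in the long-term group it began at 5 months (n = 4). The labels name no transgene or deletion, and all groups were female.

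The gate was checked against genes that it did not use. Kcnc2, which encodes a fast potassium channel subunit, had a UMI in 155 of the 156 nuclei, but also in 100% of Sst nuclei, 96.0% of Vip nuclei and 22.5% of the nuclei with no Gad UMI. Kcnc1 had one in 154 members, against 71.9%, 69.4% and 23.8% in those classes. Sox6, a transcription factor of cells from the medial ganglionic eminence, had one in 150 members, against 71.9%, 2.75% and 13.9%. Lhx6, another such factor, had a UMI in 48.7% of parvalbumin nuclei (median 13395 UMIs per nucleus), in 48.7% of Sst nuclei (median 10007), in 0 of 327 Vip nuclei (median 7147; exact 95% binomial interval up to 1.12%) and in 0.127% of the 86472 nuclei with no Gad UMI (median 5942). Genes of other cells were rarer in parvalbumin nuclei than in nuclei without Gad UMIs despite the greater depth. Slc17a7, the vesicular glutamate transporter of excitatory neurons, had a UMI in 15.4% against 51.6%, and Mbp, a myelin protein gene, in 22.4% against 42.7%. Adarb2, a gene of interneurons from the caudal eminence, had a UMI in 23.1% of parvalbumin, 21.4% of Sst and 100% of Vip nuclei. Its share of 54.5% in nuclei without Gad UMIs, with up to 373 UMIs in 1 nucleus, is no background level. Single members held 90 Adarb2 UMIs in long-term library 2, 48 in long-term library 1 and 37 in old ad libitum library 1. Intervals here and below cover counting error only.

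Pvalb was sparse even where it was required. Among the 156 nuclei, 100 had 2 Pvalb UMIs, 41 had 3, 8 had 4, 6 had 5 and 1 had 7. Only 18 of the 86472 nuclei without Gad UMIs had 2 or more (0.0208%). A total of 286 Gad nuclei that met the other conditions had 1 Pvalb UMI and fell just outside. Their summed counts held Kcnc1 at 359 CPM (a count scaled to a fixed library total), against 511 in the nuclei with 2 Pvalb UMIs, Syt2 at 89.4 against 157, and Adarb2 at 531 against 66.0. At the other edges, 10 members had exactly 3 Gad UMIs against 3 nuclei with 2. Sst gave 15 members with 1 or 2 UMIs against 5 excluded nuclei with 3 or more, and Vip gave 2 members with 1 UMI against none excluded. Sst UMIs were 0 in 141 members. The 15 members with Sst UMIs held Syt2 at 77.7 CPM, Kcnc1 at 379 and Adarb2 at 374. The nuclei with 2 Pvalb UMIs held them at 157, 511 and 66.0. In the 5 nuclei excluded for Sst they stood at 14.3, 315 and 86.0.

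The 156 nuclei held 2381437 UMIs, with a median of 13395 per nucleus (6423 to 37915) and a median of 4179 genes. The 4 libraries numbered 1, which are 1 per group, stood apart: they held 93 of the 156 nuclei and 2250 of the 4891 Gad nuclei, against 63 and 2641 in the other 9. A doublet caller marked 15 members (9.62%), against 9.20% of Gad nuclei and 7.01% of all barcodes. The marks were uneven between groups. In the order of their numbers, young libraries had 0, 0 and 0 marked members and old ad libitum libraries 0, 2 and 0. Acute libraries had 4, 1 and 1, and long-term libraries 4, 2, 1 and 0. Barcode sequences found in more than 1 library numbered 1351, of which 1 belonged to a member. No barcode was shared between members of different libraries. For shares and for genes called between groups, values without the libraries numbered 1 are given where they turn or move by over 1.5 times.

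Each library gave few parvalbumin nuclei. Young libraries 1, 2 and 3 held 14, 1 and 5. Old ad libitum libraries 1, 2 and 4 held 22, 10 and 7. Acute restriction gave 31, 5 and 8, and long-term restriction gave 26, 13, 11 and 3. In every group the library numbered 1 held the most, and 7 libraries with at least 10 nuclei held 127 of the 156.

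**Figure D1:**
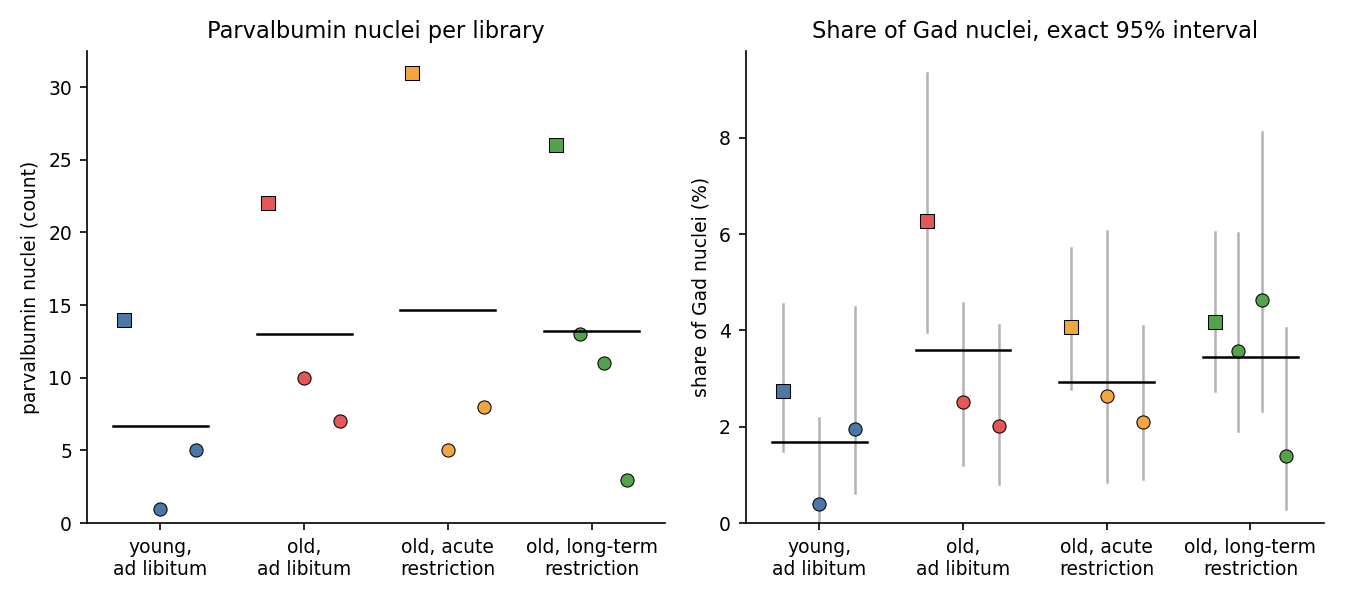
Number of parvalbumin nuclei per library (left) and their share of Gad nuclei in percent (right) in the 4 groups. Each point is 1 mouse, squares are libraries numbered 1, black bars are group means and grey lines are exact 95% binomial intervals. Shares range from 0.395% in young library 2 to 6.27% in old ad libitum library 1, and the groups overlap.

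The share of parvalbumin nuclei among Gad nuclei did not separate the groups. In the order of their numbers, young mice had 2.73%, 0.395% and 1.95%. Old mice fed ad libitum had 6.27%, 2.51% and 2.02%. Acute restriction gave 4.06%, 2.65% and 2.10%, and long-term restriction gave 4.17%, 3.57%, 4.62% and 1.40%. Each pair of groups overlapped. Group means were 1.69 ± 1.19% (SD, n = 3), 3.60 ± 2.32% (n = 3), 2.94 ± 1.01% (n = 3) and 3.44 ± 1.43% (n = 4).

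The difference between old and young mice was 1.91 percentage points (exact two-sided permutation test, p = 0.4). Long-term restriction differed from old ad libitum by -0.159 points (exact p = 0.914), acute restriction by -0.663 (exact p = 0.9), and long-term from acute restriction by 0.504 (exact p = 0.629). Adjusted over the 4 comparisons, each exact p was 0.914. The smallest p these designs allow is 0.1 for 3 against 3 mice and 0.0571 for 4 against 3. Without the libraries numbered 1 the difference between old and young mice was 1.09 points, and without old library 1 alone it was 0.573. The differences for long-term and acute restriction turned to 0.933 and 0.108 points without the libraries numbered 1, and to 1.18 and 0.671 without old library 1 alone. Long-term and acute restriction differed by 0.826 points without the libraries numbered 1. Without long-term library 4 the long-term difference was 0.521. Depth moved with the groups: the median UMIs of Gad nuclei were 8550, 4906 and 8225 in young libraries and 14967, 10024 and 10107 in old ad libitum libraries. Under restriction they were 9782, 9838 and 7671 in acute libraries, each below every old ad libitum library, and 8747.5 to 11762 in long-term libraries. Thinned to 3000 UMIs per nucleus, 0 to 4 nuclei per library still met the rule, which gives shares of 0% to 1.73%. The differences were then 0.455 points between old and young mice, 0.322 for long-term and -0.173 for acute restriction against old ad libitum. The part of depth in the shares was not tested. Fewer parvalbumin cells and less Pvalb RNA per cell cannot be told apart by this gate.

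The identity of parvalbumin nuclei was described against Sst and Vip nuclei of the same mice. Counts were summed per mouse and class in the 7 mice with at least 10 nuclei of each class. A gene was called where edgeR's quasi-likelihood test, paired by mouse, gave a Benjamini-Hochberg adjusted p below 0.05. The 5 genes of the gate were not tested. Against Sst nuclei 1488 of 5550 tested genes were called (26.8%), of which 723 were higher (13%) and 765 lower (13.8%) in parvalbumin nuclei. Against Vip nuclei 1420 of 3672 were called (38.7%), 702 higher (19.1%) and 718 lower (19.6%). Over all genes tested the median log2 fold change was -0.02 against Sst nuclei. The counts of called genes in each list below are to be read against these shares. Genes with low counts were filtered out, and a gene could pass that filter through either class alone. For a gene that did so, the direction was fixed by the filter. Levels below are normalised CPM. The 2 comparisons share the parvalbumin sums, so their values are given side by side.

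Without the libraries numbered 1, 479 genes were called against Sst nuclei and 605 against Vip nuclei. Of the 1488 genes called against Sst nuclei, 1199 could be tested there, 1195 kept their direction and 463 were called. Of the 1420 called against Vip nuclei, 1257 could be tested there, all kept their direction and 567 were called. After thinning to 3000 UMIs per nucleus, 411 and 521 genes were called.

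Ion channels of fast firing were higher in parvalbumin nuclei. Against Sst nuclei 12 of 15 tested genes of a list of 16 channel genes were called, all higher, with a median log2 fold change of 0.99 against -0.02 over all genes. Against Vip nuclei all 14 tested genes were called higher, with a median of 1.18. Kcnc1 encodes Kv3.1, a potassium channel that shortens the action potential. Over the 7 mice it ranged from 452 to 614 CPM (median 504) in parvalbumin nuclei and from 90.9 to 158 (median 135) in Sst nuclei. The classes did not overlap, with a difference of 1.96 ± 0.12 on the log2 scale (SE; edgeR adjusted p = 7.15e-12). In Vip nuclei Kcnc1 ranged from 83.1 to 209 (log2 fold change 1.54 ± 0.14, edgeR adjusted p = 5.09e-08).

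Kcnc2 encodes Kv3.2 and was called against Vip nuclei but not against Sst nuclei. In parvalbumin nuclei it ranged from 2250.1 to 4827 CPM (median 4042) and in Sst nuclei from 2563 to 3827 (median 2945). Those ranges overlapped and the gene was not called (log2 fold change 0.32, edgeR adjusted p = 0.0641). In Vip nuclei it ranged from 916 to 1503, which lay below every parvalbumin value (log2 fold change 1.60 ± 0.15, edgeR adjusted p = 2.02e-07).

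Most other channel genes were also higher. Kcna1, the Kv1.1 subunit of axons, ranged from 101 to 199 CPM (median 168) in parvalbumin nuclei and from 30.5 to 65.0 (median 39.9) in Sst nuclei, without overlap (log2 fold change 1.87). Kcnip2, a partner of Kv4 channels, was 122 ± 35.8 CPM (SD, n = 7) against 28.7 ± 13.1 in Sst nuclei (2.01). Cacna2d2, an auxiliary subunit of calcium channels, was 293 ± 52.3 against 114 ± 32.2 in Sst nuclei (1.34) and 288 ± 52.1 against 20.7 ± 8.82 in Vip nuclei (3.77). Smaller differences against Sst nuclei included the Kv beta subunit Kcnab1 (1.28) and the sodium channel genes Scn8a (0.63) and Scn1a (0.53). Kcns3 and Hcn2 were not called against Sst nuclei (0.30 and 0.22).

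**Figure D2:**
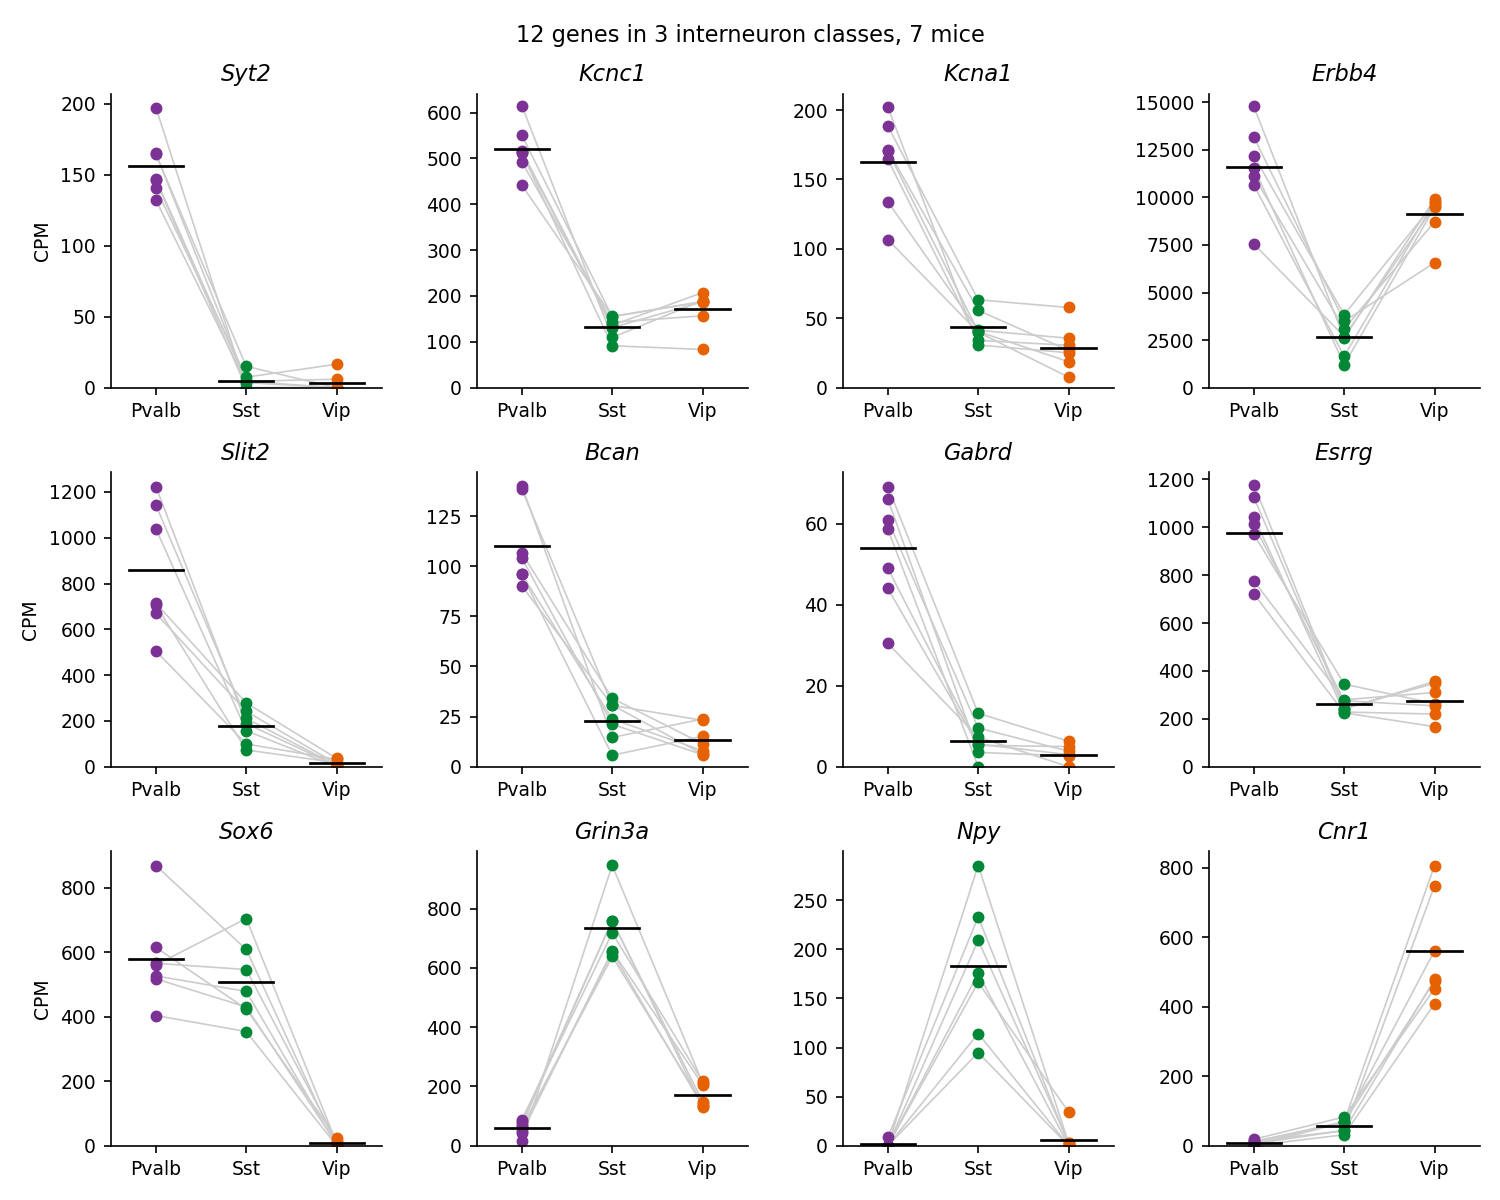
Levels of 12 genes in CPM of the class sum (vertical axes, linear, from 0) in parvalbumin, Sst and Vip nuclei of 7 mice. Each point is 1 mouse, grey lines join a mouse's classes and black bars are means. Syt2 stands at 130 CPM or more in every parvalbumin sum and below 18 in every sum of the other classes.

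Genes of the release machinery had both directions. Against Sst nuclei 3 of 18 tested genes were called higher and 5 lower, with a median of 0.04, and against Vip nuclei 4 of 16 were higher and 3 lower. Syt2 encodes synaptotagmin-2, the fast calcium sensor for transmitter release. It ranged from 130 to 187 CPM (median 149) in parvalbumin nuclei, from 0 to 15.3 (median 4.36) in Sst nuclei and from 0 to 17.2 (median 0) in Vip nuclei. Neither class overlapped with parvalbumin nuclei. The log2 fold change was 4.66 ± 0.28 against Sst (edgeR adjusted p = 6.53e-11) and 4.61 ± 0.41 against Vip nuclei (edgeR adjusted p = 8.27e-07). By nucleus, Syt2 had a UMI in 65.4% of parvalbumin nuclei, 4.16% of Sst nuclei, 1.53% of Vip nuclei and 2.95% of nuclei without Gad UMIs. After thinning these shares were 31.4%, 1.59%, 0.309% and 1.44%.

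The complexins, which clamp and promote vesicle fusion, went in opposite directions. Cplx1 was 115 ± 16.9 CPM against 61.8 ± 19.0 in Sst nuclei (log2 fold change 0.92) and 113 ± 15.9 against 37.9 ± 10.9 in Vip nuclei (1.62). Cplx2 was 8.57 ± 7.56 against 48.8 ± 13.1 (-2.27) and 8.42 ± 7.44 against 121 ± 19.1 (-3.57). Slc32a1, which loads GABA into vesicles, was called in neither (-0.02 and -0.19), nor was Snap25 (-0.07 and 0.29).

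GABA-A receptor subunits distinguished parvalbumin from Sst nuclei gene by gene. Of 10 tested subunit genes 6 were called higher and 4 lower, and none was left uncalled. Gabrd, the delta subunit of extrasynaptic receptors, ranged from 30.4 to 66.6 CPM (median 55.6) in parvalbumin nuclei and from 0 to 13.1 (median 5.68) in Sst nuclei. The ranges did not overlap, with a log2 fold change of 3.16 ± 0.31 (edgeR adjusted p = 1.54e-08). Gabrd had a UMI in 53.8% of parvalbumin nuclei, 5.15% of Sst nuclei and 11.4% of nuclei without Gad UMIs.

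Gabrg3 ranged from 2093 to 3464 CPM (median 2781) against 473 to 1156 (median 688) in Sst nuclei, with a log2 fold change of 2.00 ± 0.12. The other subunits called higher included Gabra4 (140 against 67.7 CPM) and Gabrb2 (614 against 330.2). Gabra2, which is known at synapses on the axon initial segment, was lower at 72.4 ± 40.5 against 250.3 ± 42.5 CPM. Gabrb1 and Gabra3 were also lower (log2 fold change -0.75 and -0.51). Against Vip nuclei 2 of 9 tested subunits were called higher, namely Gabrg3 (1.13) and Gabra4 (0.56), and 3 lower.

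Glutamate receptor genes were mostly lower than in Sst nuclei, where 10 of 17 tested genes were called lower and 2 higher (median -0.50). Grin3a, a subunit that lowers calcium flow through NMDA receptors, ranged from 15.2 to 85.7 CPM (median 66.4) in parvalbumin nuclei and from 655 to 940 (median 709) in Sst nuclei. The log2 fold change was -3.59 ± 0.20 without overlap. The kainate receptor gene Grik1 was 650.3 against 2574 CPM (-2.18). The AMPA receptor genes Gria2 and Gria3 were not called (-0.06 and 0.07), while Gria1 was lower (-0.50) and Gria4 higher (0.28).

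Against Vip nuclei the list had both directions, with 6 of 17 higher and 7 lower. Gria3 was 1240.03 ± 159 CPM against 137 ± 74.6 (3.21), Gria1 was 3271 against 1077 (1.61) and Gria4 was 2565 against 1109 (1.22). Grm7 was 479 against 3104 (-2.72). Cacng3 was higher than in Vip nuclei (1.04) and lower than in Sst nuclei (-0.87), and the auxiliary gene Cacng2 was higher than in both (0.54 and 0.66).

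Most factors of the medial ganglionic eminence were not called between parvalbumin and Sst nuclei. Of 7 tested factors of that list 5 were not called, among them Sox6 (576 ± 130 against 508 ± 118 CPM), Satb1 (353 against 400) and Lhx6 (49.0 against 61.2). Mef2c was the factor called higher, at 1258 ± 173 against 426 ± 133 CPM (log2 fold change 1.62), and Maf was lower (-0.29). Against Vip nuclei Sox6 ranged from 402 to 807 CPM against 0 to 23.7, a log2 fold change of 5.92 ± 0.30 (edgeR adjusted p = 2.28e-09). Satb1 was also higher there (347 against 57.4 CPM), and Dlx1 was lower (18.3 against 69.5).

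Genes of the caudal eminence and of Sst cells were mostly lower in parvalbumin nuclei. Neither direction is independent of the gate, which caps Sst and Vip UMIs. Nor is it independent of the filter on low counts. Genes of these lists that passed it through Sst or Vip nuclei alone could only come out lower in parvalbumin nuclei. Against Vip nuclei 6 of 6 tested genes of the caudal list were lower, with a median of -3.86. Adarb2 was 160 ± 205 CPM against 16565 ± 2435, and its parvalbumin values ranged from 4.12 to 574. Cnr1, the cannabinoid receptor gene of Cck basket cells, was 7.64 ± 6.74 against 576 ± 168 (-6.12), and Cck itself was 18.4 against 128 (-2.83). Against Sst nuclei 3 of 4 tested genes of the caudal list were lower and 1 was not called (median -2.32). All 8 tested genes of the Sst list were lower than in Sst nuclei (median -2.93). Against Vip nuclei 5 of 6 tested genes of the Sst list were lower and 1 was higher (median -1.62). Npy, a neuropeptide gene, had a UMI in 1 of the 156 nuclei (0.641%), against 42.8% of Sst nuclei and 1.04% of nuclei without Gad UMIs. The secreted matrix protein gene Reln was 11.1 ± 15.5 against 566 ± 148 CPM, and the synaptic organiser gene Elfn1 was 10.3 ± 5.00 against 121 ± 22.7. Nxph1, which encodes a neurexin ligand, was near the Sst level (2828 against 3492, -0.31) and far above the Vip level (2773 against 180.0, 4.24).

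ErbB4 is the receptor through which neuregulins act on interneurons. Erbb4 ranged from 7273 to 14954 CPM (median 11544) in parvalbumin nuclei and from 1187 to 3908 (median 2666) in Sst nuclei. The classes did not overlap (log2 fold change 2.19 ± 0.24, edgeR adjusted p = 0.00029). In Vip nuclei it ranged from 6823 to 10550.1 and was not called (0.27, edgeR adjusted p = 0.107). The ligand genes Nrg1, Nrg2 and Nrg3 were not called against Sst nuclei (-0.93, 0.02 and -0.14). Egfr, a related receptor gene, was 3.80 ± 4.64 against 422 ± 103 CPM in Vip nuclei (-6.45).

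Perineuronal nets are coats of chondroitin sulphate proteoglycans around these cells. The list of 17 genes for nets also holds receptors and enzymes that are not net components. Against Sst nuclei 6 of them could be tested, of which 3 were higher (Bcan, Crtac1 and Mme) and 1 lower. Bcan, which encodes brevican, ranged from 90.9 to 140 CPM (median 105) in parvalbumin nuclei, from 5.68 to 34.7 (median 23.4) in Sst nuclei and from 6.32 to 24.2 (median 11.8) in Vip nuclei. It overlapped with neither class (log2 fold changes 2.11 ± 0.20 and 2.82 ± 0.26). Crtac1 was 181 ± 64.5 CPM against 43.0 ± 13.7 in Sst nuclei (2.08), and Mme, which encodes neprilysin, was 49.1 against 24.2 (0.97). Ptprz1, a receptor of net components, was lower than in both classes (-1.96 and -4.35). Tnr, which encodes the net glycoprotein tenascin-R, was called higher against Vip nuclei alone (0.84; 0.15 against Sst nuclei).

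Acan, the aggrecan gene, was too low to be tested. It had a UMI in 37 of 156 parvalbumin nuclei (23.7%, exact interval 17.3% to 31.2%), 0.396% of Sst nuclei and 0.764% of nuclei without Gad UMIs. After thinning it was at 2.56% in parvalbumin nuclei, 0 in Sst nuclei and 0.641% in nuclei without Gad UMIs. Its neighbour Gm26633 is an antisense-type transcript on chromosome 7 (79018053 to 79053323, minus strand, GRCm38), and Acan lies on the plus strand from 79053483 to 79115099. Gm26633 had the largest fold change among genes higher than in Sst nuclei by the naming rule, at 56.9 ± 15.2 against 1.36 ± 1.98 CPM (log2 fold change 4.84 ± 0.37, edgeR adjusted p = 2.68e-10).

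**Figure D3:**
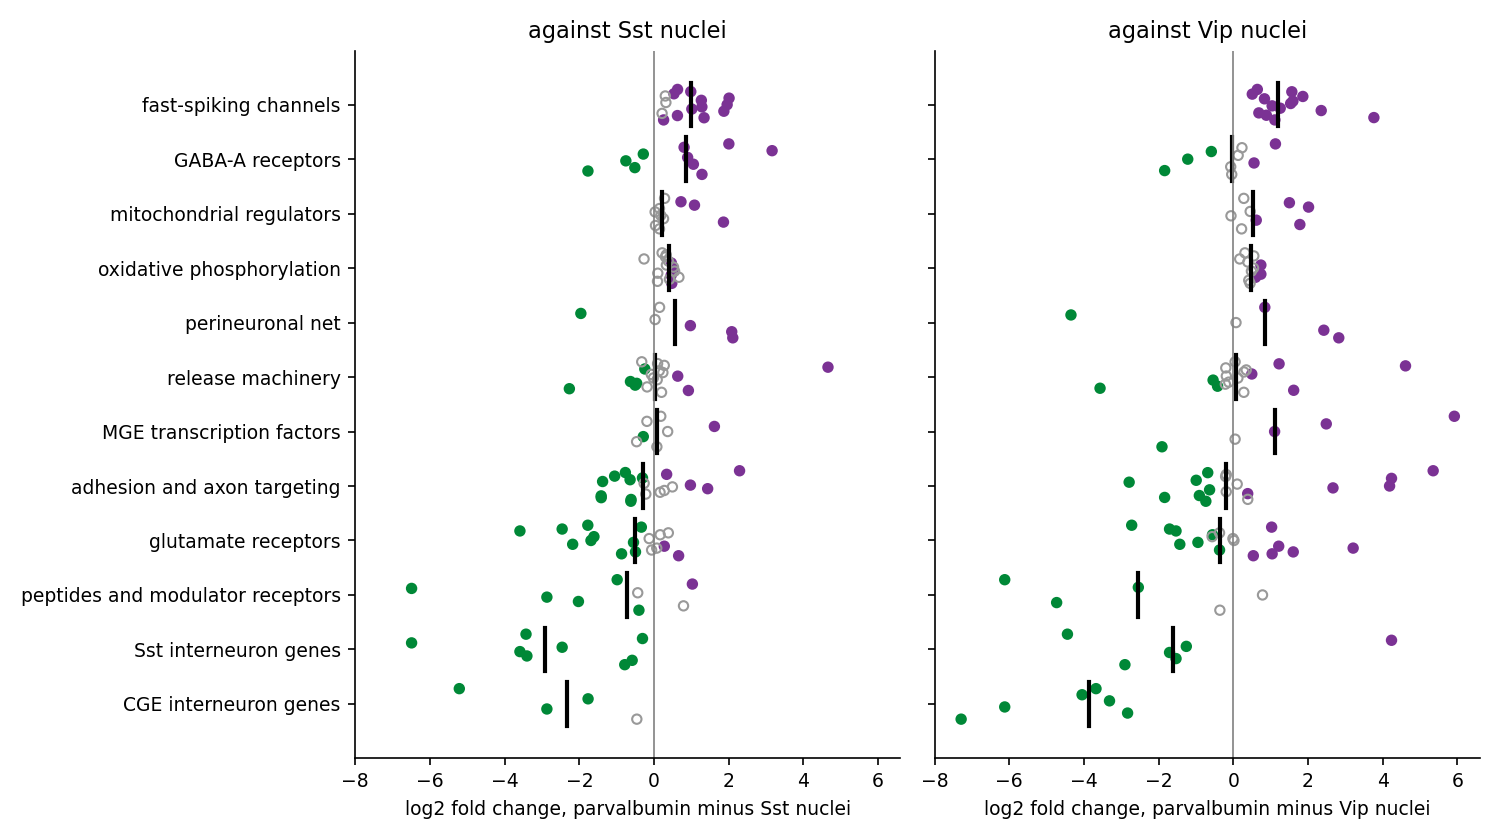
Log2 fold change of the genes of 12 lists between parvalbumin and Sst nuclei (left) and between parvalbumin and Vip nuclei (right). Each point is 1 gene, purple where called higher, green where called lower and open grey where not called, and black bars are list medians. All 14 tested channel genes lie to the right against Vip nuclei, and all 8 tested Sst genes lie to the left against Sst nuclei.

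Some regulators of mitochondria were higher. Against Sst nuclei 3 of 10 tested genes were called, all higher, where 26.8% of all genes were called and 13% were higher. Against Vip nuclei 4 of 8 were called, all higher, where 38.7% of all genes were called and 19.1% were higher. The share called in either direction was near that of all genes against Sst nuclei and above it against Vip nuclei. The share called higher was above that of all genes in both comparisons. Few genes of the list could be tested, and these differences in share were not tested. Ppargc1a, the coactivator PGC-1alpha of mitochondrial genes, ranged from 188 to 299 CPM (median 253) in parvalbumin nuclei, from 79.0 to 164 (median 140) in Sst nuclei and from 30.2 to 109 (median 60.3) in Vip nuclei. It overlapped with neither (log2 fold changes 1.08 ± 0.12 and 2.02 ± 0.18). Esrrg, an orphan nuclear receptor that works with PGC-1alpha, was 971 ± 162 against 264 ± 44.7 CPM in Sst nuclei (1.86) and 952 ± 158 against 279 ± 66.5 in Vip nuclei (1.78). The deacetylase gene Sirt3 was also higher in both comparisons (0.72 and 1.50).

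Of the oxidative phosphorylation genes, 4 of 16 tested were called higher against Sst nuclei and 3 of 11 against Vip nuclei, with none lower. The share called in either direction was at or below that of all genes (26.8% and 38.7%). Of all genes 13% and 19.1% were called higher. The medians were 0.40 and 0.49. Ndufs1 (105 against 74.7 CPM), Cox4i1 (101 against 71.8), Cox8a (78.1 against 51.7) and Atp5a1 (106 against 74.1) were the 4 called against Sst nuclei, and their log2 fold changes lay between 0.46 and 0.52.

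Adhesion and axon guidance genes had both directions. Against Sst nuclei 4 of 18 were higher and 9 lower, and against Vip nuclei 5 of 17 were higher and 7 lower. Slit2, a secreted guidance ligand, ranged from 496 to 1252 CPM (median 755) in parvalbumin nuclei, from 71.8 to 286 (median 192) in Sst nuclei and from 0 to 37.7 (median 12.6) in Vip nuclei, without overlap. Cntnap4, a neurexin-family protein of parvalbumin synapses, was 1198 ± 187 against 449 ± 127 CPM in Sst nuclei (1.44) and 1174 ± 177 against 193 ± 59.8 in Vip nuclei (2.67). Nrxn3, Ank3, Robo2, Cdh4 and Cdh8 were lower in both comparisons.

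Of 8 tested genes for peptides and modulator receptors, 1 was higher and 5 were lower than in Sst nuclei (median -0.71). Of 5 tested against Vip nuclei none was higher and 3 were lower (median -2.54). Oprd1, the delta opioid receptor gene, was higher than in Sst nuclei (116 ± 53.7 against 57.9 ± 12.5 CPM, log2 fold change 1.03). It had a UMI in 76.3% of parvalbumin nuclei, 38% of Sst nuclei, 3.06% of Vip nuclei and 7.48% of nuclei without Gad UMIs. The muscarinic receptor gene Chrm3 was lower than in both classes (-2.02 and -2.54), and Oprm1, the mu opioid receptor gene, was lower than in Sst nuclei (-0.99). Chrm2 did not pass the test (162 against 85.6 CPM in Sst nuclei).

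Hormone and nutrient pathways were covered by further lists. Of 14 tested genes of the insulin, IGF and FoxO list, Igf1r alone was called against Sst nuclei (0.33). Against Vip nuclei Tsc1 was higher (0.44) and 4 were lower, among them Igf1 (9.25 ± 6.33 against 313 ± 104 CPM, -5.31). Of the glucocorticoid response list 3 of 5 tested genes were higher than in Sst nuclei and none lower (median 0.40), and 3 of 4 were lower than in Vip nuclei and none higher (median -1.03). The mineralocorticoid receptor gene Nr3c2 was higher than in Sst nuclei (335 against 253 CPM, 0.40) and lower than in Vip nuclei (328 against 944, -1.52), and the glucocorticoid receptor gene Nr3c1 had the same pattern (0.68 and -0.54). Rora, an orphan nuclear receptor of the clock list, was higher than in both (1319 ± 246 against 476 ± 136 CPM, and 1293 ± 243 against 851 ± 194). No heat shock gene of 6 tested was called against Sst nuclei, and Hspa8 alone was lower against Vip nuclei (-0.70). Calbindin (Calb1) was the calcium buffer called lower than in Sst nuclei (36.0 against 64.6 CPM), and Necab1 the one lower than in Vip nuclei (88.8 against 356). The immediate early gene Homer1, the only one of its list that could be tested, was called in neither comparison (-0.03 and -0.06).

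Outside these lists, genes are named by the size of their fold change. Those near 0 in the lower class may have passed the filter on low counts through the higher class alone, which fixes their direction. Tll1 encodes a tolloid-like metalloprotease. It ranged from 60.6 to 578 CPM (median 156) in parvalbumin nuclei, from 0 to 34.7 (median 5.68) in Sst nuclei and from 0 to 19.1 (median 3.95) in Vip nuclei. The classes did not overlap, while the parvalbumin values varied widely among mice. The cyclic nucleotide phosphodiesterase genes Pde5a (106 ± 53.5 against 4.88 ± 3.43 CPM) and Pde11a (164 ± 96.7 against 11.8 ± 14.3) were higher than in Sst nuclei. Pde1c, a calcium- and calmodulin-dependent member of that enzyme family, was lower (10.3 ± 9.95 against 144 ± 15.9).

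Cemip, a hyaluronan-binding protein gene, was 431 ± 70.3 against 43.6 ± 22.2 CPM (log2 fold change 3.37), and Mypn, which encodes the actin-binding protein myopalladin, was 81.5 ± 9.20 against 8.94 ± 6.93 (3.23). Adamtsl5, Rbm20 and Fras1 completed the 10 leading genes against Sst nuclei (4.37, 3.78 and 3.54). The leading genes in Sst nuclei, besides those named above, were Pde1c, Gm28175, 4930509J09Rik, Cacng4, Mgat4c and Man1a, with log2 fold changes between -3.96 and -3.58. Pappa, which encodes a protease of IGF-binding proteins, had 3 UMIs in parvalbumin sums and stood at 1.91 against 57.5 CPM.

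Against Vip nuclei the leading genes that were higher in parvalbumin nuclei were Mypn (79.9 against 0.245 CPM, on 1 UMI in Vip sums), Moxd1 (116 against 1.49, on 3 UMIs), Sox6, Slit2, Tll1, Syt2, Nek7, Slc25a13, Nxph1 and Il1rapl2. Il1rapl2, a synaptic adhesion gene, was 1059 ± 442 against 76.4 ± 116 CPM (4.19). The mitotic kinase gene Nek7 was 259 ± 59.9 against 9.63 ± 4.63 (4.57). The leading genes in Vip nuclei, besides Adarb2, Egfr and Cnr1, included Fbln2, Plpp4, Rgs12, Fxyd6, Sorcs3 and Sema5b, and each of these had a mean of 36.0 CPM or less in parvalbumin nuclei.

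Some genes were found in a part of the parvalbumin nuclei. Unc5b and Pthlh are known from axo-axonic (chandelier) cells of the cortex and Tac1 from basket cells. UMIs of Unc5b were found in 23 of the 156 nuclei (14.7%), of Tac1 in 33 (21.2%) and of Pthlh in 9 (5.77%), against 3.29%, 0.465% and 0.074% of nuclei without Gad UMIs. Sst nuclei had shares of 0.990% for Unc5b, 6.34% for Tac1 and 0.792% for Pthlh. Vip nuclei had 6.42% for Unc5b and 0.306% for Tac1, and Pthlh was found in 36 of 327, a larger share than in parvalbumin nuclei. At least 2 Unc5b UMIs were present in 14 nuclei (8.97%) from 9 libraries, with 6 in the libraries numbered 1. In these 14 nuclei Tac1 was at 0 CPM against 26.4 in the other 142, Pthlh at 27.4 against 2.77, Syt2 at 32.0 against 159 and Kcnc2 at 2505 against 3902. Erbb4 was at 15711 against 11644 CPM and Kcnc1 at 608 against 486. Median depth was 12214.5 UMIs against 13581. The threshold was chosen after these values were seen, so they are given without a test.

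Ageing and restriction were compared within parvalbumin nuclei over the 7 libraries with at least 10 nuclei. These are 1 young, 2 old ad libitum, 1 acute and 3 long-term libraries, and the lone libraries are assumed to vary like the rest (3 residual degrees of freedom). Of 4746 tested genes edgeR called 2 between old and young mice (0.0421%), 3 for long-term restriction (0.0632%), 1 for acute restriction (0.0211%) and 5 between long-term and acute restriction (0.105%). With 12 libraries of at least 3 nuclei (8 residual degrees of freedom), none of 4165 genes was called in any of the 4 comparisons by edgeR or by DESeq2. Unadjusted edgeR p-values below 0.05 numbered 212, 125, 160 and 111 there. The levels that follow are normalised CPM of the 12 libraries, in the order of their numbers.

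The genes called for long-term restriction against old mice fed ad libitum were all lower. Tll1 (chromosome 8, 64014931 to 64206271, minus strand, GRCm38) stood at 567, 433 and 274 CPM in old ad libitum mice and at 153, 127, 59.9 and 226 under long-term restriction. Acute restriction gave 147, 264 and 37.0, and the young mice of libraries 1 and 3 gave 351 and 280.03. Every restricted library lay below every old ad libitum library. For long-term restriction edgeR gave -2.13 ± 0.28 on the log2 scale (adjusted p = 0.00164) in 7 libraries. In 12 libraries it gave -1.80 ± 0.44 (adjusted p = 0.999). For acute restriction, which shares the old ad libitum libraries, it was -1.65 ± 0.49 in 12 libraries.

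Single nuclei held much of the Tll1 count. In old ad libitum library 1, 1 of 22 nuclei held 133 of 261 UMIs (51.0%), and without it the level by plain CPM was 290 in place of 547. In library 2 the top nucleus held 19 of 71 UMIs, and in library 4 it held 31 of 32, which left 11.7 CPM in place of 279. Without their top nucleus the long-term libraries stood at 140, 85.9, 51.5 and 38.9. The groups then overlapped. Without old ad libitum library 1 the long-term call was lost while the log2 fold change was -1.89 (edgeR adjusted p = 0.189), and without its library 2 it held (adjusted p = 0.00147).

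Fgf13 encodes an intracellular FGF that binds sodium channels. It stood at 1247, 1245 and 617 CPM in old ad libitum mice and at 650, 429, 494 and 1228 under long-term restriction. The groups overlapped over 12 libraries, with a log2 fold change of -0.71 ± 0.37, against -1.24 ± 0.22 (edgeR adjusted p = 0.0159) in 7. Without the libraries numbered 1 the value in libraries of at least 3 nuclei was -0.53. Pde11a stood at 252, 323 and 60.0 against 129, 74.1, 69.8 and 100.3, also with overlap (-1.24 ± 0.56 in 12 libraries and -1.58 ± 0.28, edgeR adjusted p = 0.0159, in 7). Old ad libitum library 4, which had 7 nuclei and was not among the 7 libraries, lay within the long-term range for Fgf13 and below every restricted library for Pde11a.

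**Figure D4:**
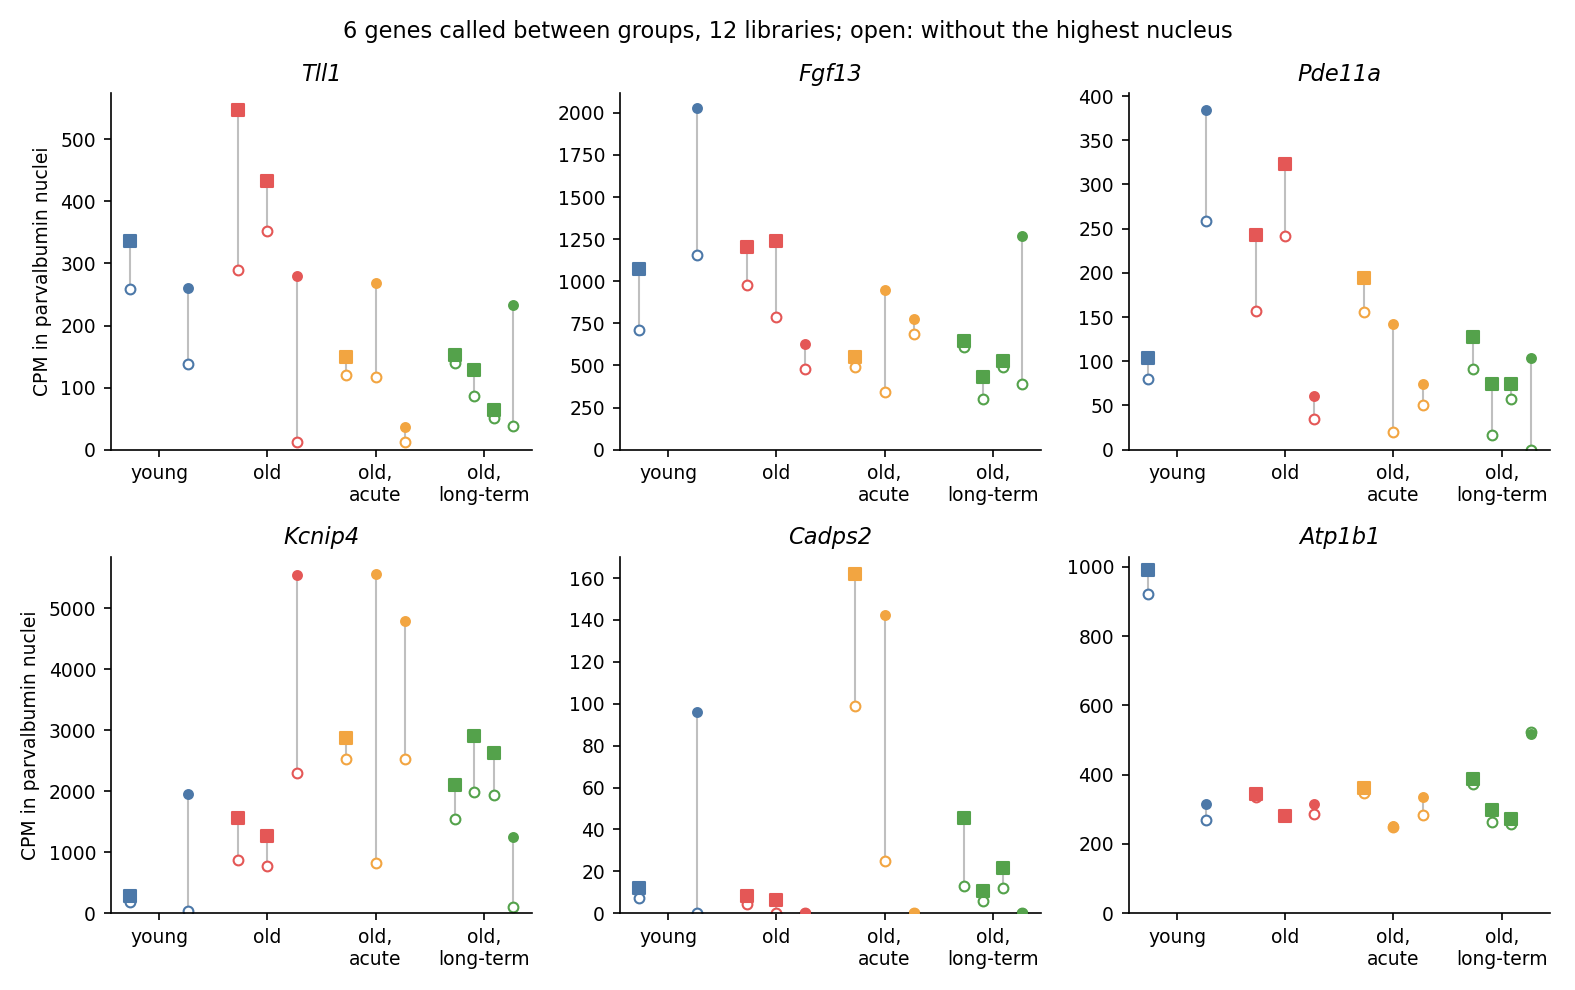
Level of 6 genes in parvalbumin nuclei in CPM (vertical axes, linear, from 0) in the 12 libraries with at least 3 such nuclei, by group. Filled squares are libraries with at least 10 nuclei, filled circles the others, and open circles give each library without its highest nucleus. Tll1 goes from 279 to 11.7 in old ad libitum library 4 when 1 nucleus is left out, while Atp1b1 moves little.

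Between old and young mice fed ad libitum the called genes were Kcnip4 and Atp1b1. Kcnip4, which encodes a partner of Kv4 channels and overlaps 31 other annotated genes, stood at 294 and 2108 CPM in young libraries 1 and 3 and at 1618, 1269.6 and 5441 in old ones. Young library 3 lay within the old range, and there 1 of 5 nuclei held 141 of 143 UMIs. In old ad libitum library 2, nuclei marked as doublets held 102 of 208 UMIs. Without them the level by plain CPM was 852 in place of 1266. Old ad libitum libraries 1 and 4 had no UMI of Kcnip4 in such nuclei. The log2 fold change was 2.39 ± 0.35 (edgeR adjusted p = 0.00235) in 7 libraries and 1.35 ± 0.90 in 12, and 0.79 there without the libraries numbered 1.

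Atp1b1, the beta1 subunit gene of the sodium pump, stood at 1034 and 339 CPM in young and at 356, 281 and 308 in old libraries. Young library 1 stood alone, its UMIs were spread over all 14 nuclei (162 UMIs, of which 25 in the top nucleus), and young library 3 lay within the old range. The log2 fold change was -1.58 ± 0.30 (edgeR adjusted p = 0.0454) in 7 libraries and -1.11 ± 0.34 in 12, and -0.09 there without the libraries numbered 1.

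Acute restriction gave a call for Cadps2, which encodes a priming factor of dense-core vesicles. It stood at 160, 140 and 0 CPM under acute restriction, at 8.69, 6.10 and 0 in old ad libitum mice, at 12.8 and 103 in young mice and at 46.0, 10.6, 20.0 and 0 under long-term restriction. Acute library 3 had no UMI of it in 8 nuclei, so the groups overlapped. In acute library 1, 10 of 31 nuclei held its 76 UMIs, with 32 in 1 nucleus. The 4 nuclei of that library marked as doublets held 65 of the 76 UMIs, and without them the level by plain CPM was 29.6 in place of 162. In acute library 2, 1 such nucleus held 8 of 9 UMIs. The acute group in the test of 7 libraries is library 1 alone, and Cadps2 passed the filter on low counts through that library alone. Without doublets it did not pass the filter. The log2 fold change was 4.23 ± 0.63 (edgeR adjusted p = 0.00264) in 7 libraries and 3.93 ± 1.09 in 12 (edgeR adjusted p = 0.999).

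Cadps2 was among the calls between long-term and acute restriction in 7 libraries (log2 fold change -2.46). This rests on the same acute library 1, through which alone Cadps2 passed the filter, and is no separate result. In 12 libraries the value was -2.05 ± 0.83 (edgeR adjusted p = 0.9997), and the groups overlapped. The other calls of that comparison were lower levels of Pdzrn4 (-1.99), of the receptor phosphatase gene Ptprt (-1.68) and of Pex5l (-1.44), and a higher level of the noncoding 6330411D24Rik (1.57). Pex5l encodes TRIP8b, a partner of HCN channels. It stood at 531, 652 and 278 CPM under acute and at 212, 159, 209.5 and 175 under long-term restriction, without overlap (-1.34 ± 0.29 in 12 libraries, edgeR adjusted p = 0.474). In acute library 2, 1 of 5 nuclei, marked as a doublet, held 38 of its 42 UMIs. Without the top nucleus of each library the acute libraries stood at 451, 99.1 and 237 by plain CPM and the long-term libraries at 183, 115, 206 and 142, so that the groups overlapped. Without nuclei marked as doublets the log2 fold change of Pex5l was -0.67. Pdzrn4 stood at 311, 15.5 and 9.26 under acute restriction, so that the first library alone was above the long-term range of 44.9 to 125. Ptprt stood at 857, 481 and 0 CPM against 25.1 to 374. Without the libraries numbered 1 both turned, in libraries of at least 3 nuclei, to 2.62 for Pdzrn4 and 0.22 for Ptprt. Without doublets Pdzrn4 was at -0.95. The noncoding 6330411D24Rik stood at 275, 668 and 500.1 CPM under acute and at 723, 868, 873 and 301 under long-term restriction. These groups overlapped, and without the libraries numbered 1 the log2 fold change was 0.32.

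These counts changed when single libraries were left out. For ageing, edgeR called 0 genes without old ad libitum library 1, 1 without its library 2, and 5 and 6 without long-term libraries 2 and 3. For long-term restriction the counts were 0 and 1 without old ad libitum libraries 1 and 2, and 6 and 8 without long-term libraries 2 and 3. For acute restriction they were 2 without young library 1, 0 and 7 without old ad libitum libraries 1 and 2, and 2, 5 and 11 without long-term libraries 1, 2 and 3. Between long-term and acute restriction they were 1 without old ad libitum library 1 and 10 without long-term library 2 or 3. Without old ad libitum library 1, which also takes away 1 residual degree of freedom, the log2 fold changes stayed about as large while calls were lost, with 2.19 for Kcnip4, -1.80 for Atp1b1, -1.23 for Fgf13, -1.76 for Pde11a and 4.60 for Cadps2 under acute restriction. Removing nuclei marked as doublets left old ad libitum library 2 with 8 nuclei, under the minimum of 10, and without both the counts were 0, 1, 1 and 1. With at least 8 nuclei, which keeps the same 7 libraries, the counts without doublets were 0, 3, 1 and 0. There Tll1, Fgf13 and Pde11a kept their long-term calls (-2.06, -1.43 and -1.58), and Kcnip4 and Atp1b1 were not called (2.18 and -1.53). In both fits without doublets the gene called for acute restriction was not Cadps2, which did not pass the filter.

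Summed levels of marker lists of other cells moved between these 7 libraries. The summed level of 8 oligodendrocyte markers was 12.2 CPM in the young library, 37.7 to 524 in old ad libitum, 74.6 in acute and 47.9 to 389 in long-term libraries. That of 7 granule neuron markers was 489 in the young library, 557 to 864 in old ad libitum, 701 in acute and 933 to 942 in long-term libraries. Astrocyte markers summed to 268 to 518 CPM, pyramidal neuron markers to 245 to 548, microglial markers to 17.1 to 101, precursor markers to 133 to 394 and vascular markers to 0 to 48.0. Several sums rested mostly on a few genes. In all members Slc4a4 had 736 UMIs of the astrocyte list (next Slc1a3, 17), Lhfpl3 529 of the precursor list (next Vcan, 9) and Camk2a 810 of the pyramidal list (next Slc17a7, 44). Of the granule neuron list Stxbp6, Rfx3 and Dock10 had 603, 516 and 361, and Prox1 had 37. Sst sums also held Slc4a4, Lhfpl3 and Camk2a (481, 2037 and 1419 UMIs). Over all members Inpp5d, Tmem119, Col1a2, Iyd, Cldn5 and Olig1 were at 0. The part of these transcripts in the group differences was not tested.

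The lists were read in the 12 libraries, where no gene was called. Between old and young mice 4 heat shock genes could be tested. Hspa8, the constitutive Hsc70 gene, stood at 236 and 118 CPM in young mice and at 56.5, 18.3 and 25.7 in old mice, without overlap (log2 fold change -2.17 ± 0.51, edgeR adjusted p = 0.648). Hsp90ab1 (-1.17), Hspa5 (-1.56) and Hsp90aa1 (-0.80) had lower means in old mice too, and 3 of the 4 genes had an unadjusted p below 0.05, against 5.09% of all genes. Of 14 oxidative phosphorylation genes, 3 had such a p, namely Cox6c (-1.65), Cox8a (-1.40) and Cox4i1 (-0.92), and the list's median was -0.51. These values set 3 old against 2 young libraries, of which young library 3 had 5 nuclei. Counts were low. Hspa8 had 8 and 37 UMIs in the young libraries and 3 to 26 in old ones. Hspa5 had 3 and 14 against 1 to 13, and Hsp90ab1 7 and 36 against 5 to 47. Hsp90aa1 stood at 147 CPM in young library 1 but at 59.0 in young library 3, within the old range of 34.3 to 76.0.

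The channel genes had a median log2 fold change of -0.07 between old and young mice. Kcnc1 differed by -0.07 ± 0.27, Kcnc2 by 0.21 ± 0.27, Syt2 by 0.46 ± 0.36 and Erbb4 by -0.13 ± 0.26, none with an unadjusted p below 0.05. Syt2 stood at 153 and 59.0 CPM in young libraries 1 and 3 and at 146, 146 and 189 in old ones. Young library 3, on 4 UMIs, lay alone below the old range. Long-term restriction gave -0.27, -0.23, 0.04 and -0.16 for these 4 genes, and acute restriction gave -0.20, -0.45, -0.45 and -0.10.

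The genes of smallest p whose groups did not overlap in the 12 libraries, none of them called, began for ageing with 1700030F04Rik. It stood at 198 and 221 CPM in young mice and at 34.8, 42.7 and 25.7 in old mice (log2 fold change -2.48 ± 0.47, edgeR adjusted p = 0.0637). The clock gene Nr1d2 stood at 12.8 and 14.7 in young and at 47.8, 67.1 and 68.5 in old mice (2.13 ± 0.71, edgeR adjusted p = 0.929), on 2 and 1 UMIs in the young libraries.

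For long-term restriction the net gene Tnr stood at 438, 545, 419 and 301 CPM against 747, 757 and 626 in old ad libitum mice (-0.72 ± 0.21, edgeR adjusted p = 0.999). The guanine nucleotide exchange factor gene Rasgrf1 was 336 ± 49.6 (SD, n = 4) against 177 ± 59.2 CPM (n = 3; 0.79). For acute restriction, Homer1, a scaffold gene of the immediate early list, stood at 199 and 140 in libraries 1 and 2, 232 in library 3, against 91.2, 61.0 and 120.0 (1.12 ± 0.29, edgeR adjusted p = 0.813). Under long-term restriction it stood at 79.7, 84.7, 120 and 100.3. Ldb2 stood at 120, 155 and 64.8 under acute restriction against 6.52, 12.2 and 8.57 CPM in old ad libitum mice (3.65 ± 0.77, edgeR adjusted p = 0.638). The old ad libitum values rest on 1 to 3 UMIs per library. Ldb2 reached 59.0 CPM in young mice and 68.8 under long-term restriction. The part of single nuclei and of nuclei marked as doublets in the Homer1 and Ldb2 values was not tested.

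Differences between libraries in parvalbumin nuclei were set against those in Sst nuclei of the same mice by the interaction of class and group in the 7 mice. Of 8529 tested genes none was called for ageing or for long-term restriction by edgeR, where 339 and 385 had an unadjusted p below 0.05. For acute restriction, where the test holds acute library 1 alone, 3 were called (0.0352%), with 286 below 0.05, so these calls compare that library with the old ad libitum libraries. These were Cadps2 (difference of log2 fold changes 4.90 ± 0.62), the heparan sulphate sulfotransferase gene Hs3st5 (-4.28 ± 0.69) and the semaphorin gene Sema6d (-3.65 ± 0.58). In Sst nuclei Cadps2 stood at 51.8 CPM in acute library 1 and at 74.9 and 90.0 in old ad libitum libraries 1 and 2. In parvalbumin nuclei it stood at 162 against 8.38 and 6.09 in the same libraries. Hs3st5 rested on 3 UMIs in parvalbumin nuclei of acute library 1. Without doublets, in the same 7 libraries, the difference for Cadps2 was 2.36 and was not called. The test has 3 residual degrees of freedom. For ageing the counts were 3, 2 and 5 without old ad libitum library 2, long-term library 1 and long-term library 3. For long-term restriction they were 5 and 3 without old ad libitum libraries 1 and 2, and 3, 7 and 43 without long-term libraries 1, 2 and 3. For acute restriction they were 6 without old ad libitum library 1 and 5, 7 and 22 without those long-term libraries.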

How the data were processed

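Single-nucleus libraries of frozen hippocampus (10x 3' chemistry) came from 13 mice, 1 library each. The authors deposited raw UMI counts per gene and barcode, made with Cell Ranger 4.0.0 per the file headers and aligned to mm10 per the submitters' processing notes. The use of strand, ambient RNA correction and doublet removal are not given in the sources used here, so overlapping and antisense genes stay uncertain. Libraries held 38546292 to 80538090 UMIs over all deposited barcodes, and the matrices list 32285 genes, of which 32158 identifiers matched GENCODE on GRCm38 for positions. Doublets were marked with Scrublet (scanpy 1.11.5; top 0.8% per 1000 barcodes) and kept, with an alternative that removes them.

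UMIs were summed per mouse and class for sums of at least 10 nuclei. edgeR 4.0.16 (R 4.3.3; filterByExpr, TMM, robust quasi-likelihood test, Benjamini-Hochberg adjustment over all genes tested) gave log2 fold changes with standard errors. Class comparisons were paired by mouse, since the classes come from the same animals, and group comparisons were not. The 5 genes of the rule counted in library sizes but were not tested. DESeq2 1.42.0 was an alternative. Shares were compared by exact permutation tests over mice, and binomial intervals are exact (Clopper-Pearson). Thinning drew 3000 UMIs per nucleus and left out shallower nuclei. Leading genes are the 10 of largest fold change per direction among called genes with a mean of at least 50 CPM in the higher class and the same direction in every mouse. For groups, called genes are named, and, from 12 libraries, non-overlapping genes of smallest p. Some genes are not reported here. The statistics were tested on simulated data. The members, gene lists and tests were chosen with earlier results of these data known. The 12-library fits, those without the libraries numbered 1, those without doublets in the same 7 libraries, and the depth and single-nucleus values were added after seeing the data.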

Additional observations from a re-analysis of the deposited data

Results flagged for a closer look

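Among the genes named against Sst or Vip nuclei, 60 groups of parvalbumin sums were tested for a sample far from the others, and 9 had one. Chance marks about 1 in 20 such groups. Several rest on 1 or 2 UMIs. The high libraries were young library 1 for Satb1 (551 CPM, 89 UMIs) and Rgs12 (12.2 CPM, 2 UMIs), old ad libitum library 1 for Npy (8.85 CPM, 4 UMIs in 1 nucleus), and old ad libitum library 2 for Pde5a (213 CPM, 35 UMIs), Fbln2 (5.97 CPM, 1 UMI) and Plpp4 (11.9 CPM, 2 UMIs). Acute library 1 was high for Cacng4 (14.6 CPM, 7 UMIs), and long-term library 2 for Pappa (10.3 CPM, 2 UMIs) and Mgat4c (215 CPM, 42 UMIs).

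The difference between acute library 1, the single acute library in the test, and the old ad libitum libraries was unlike in parvalbumin and Sst nuclei for 3 genes by the edgeR interaction test. With 1 acute library it does not show a response to restriction. The difference of log2 fold changes was 4.90 for Cadps2 (edgeR adjusted p = 9.06e-05), -4.28 for Hs3st5 (edgeR adjusted p = 0.0034) and -3.65 for Sema6d (edgeR adjusted p = 0.0298). Hs3st5 rested on 3 UMIs in parvalbumin nuclei of acute library 1. Cadps2 in acute library 3 had no UMI in either class. Without nuclei marked as doublets the Cadps2 difference was smaller and was not called. Sema6d in parvalbumin nuclei stood at 650 and 353 CPM in old ad libitum libraries 1 and 2 and at 34.1 in acute library 1. Old ad libitum library 4 and acute library 3, which were not in the test, stood at 8.73 and 242 CPM, in the opposite order. In acute library 3, 25 of the 26 UMIs were in 1 nucleus, and without it the level was 12.8. Acute library 2 stood at 63.2.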

How the results depend on the processing

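Counts of called genes are given for ageing, long-term restriction, acute restriction and long-term against acute restriction, in that order (2, 3, 1 and 5 in the report). They were 1, 1, 1 and 1 with DESeq2, 8, 17, 26 and 14 with no filter on low counts, 0, 1, 1 and 1 without doublets (and so without old ad libitum library 2, which fell below 10 nuclei), 0, 3, 1 and 0 without doublets in the same 7 libraries, 1, 2, 4 and 0 with a term for the libraries numbered 1, and 1, 1, 0 and 1 with median UMIs as a covariate. With libraries of at least 3 nuclei they were 0, 0, 0 and 0 (DESeq2 0, 0, 0 and 0). With that term as well they were 0, 1, 2 and 1, and with median UMIs 1, 1, 3 and 0. Leaving the libraries numbered 1 out of these leaves 1 young library, and the counts for the 3 comparisons of old groups were 1, 1 and 1. No gene called in the report was called there for the same comparison. Without doublets, the genes called for acute restriction and between restrictions were also other genes. Leaving out 1 library gave 0 to 6, 0 to 8, 0 to 11 and 1 to 10. With the replicate number as a block they were 12, 23, 40 and 23, and with at least 3 nuclei 0, 0, 0 and 1. Of same-number pairs of libraries, 0 of 13 had deviations correlated over 0.1 (-0.141 to 0.0884 across 2046 genes), against 8 of 40 pairs with different numbers. These deviations come from small sums. The 2 young libraries mirror each other (-0.201 and 0.201 with old ad libitum library 2), so the pairs are not independent. The check therefore cannot decide whether the numbers pair the mice. The fits with at least 20 nuclei or at least 3 Pvalb UMIs could not be fitted for groups. The cause was not tested.

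Against Sst nuclei 421 genes were called with at least 3 Pvalb UMIs, 411 after thinning, 479 without the libraries numbered 1, 1998 without the filter, and 1218 to 1456 without 1 library. Against Vip nuclei they were 539, 521, 605, 2253 and 1144 to 1533. Without the replicate block for mice 1283 and 1363 were called. Class-by-group calls (0, 0 and 3 for ageing, long-term and acute restriction) were 3, 33 and 12 without the filter, 2, 7 and 3 without doublets and old ad libitum library 2, 1, 4 and 3 without doublets in the same 7 libraries, and 0 to 5, 0 to 43 and 3 to 22 without 1 library.

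For shares, after thinning the differences were 0.455 points for ageing, 0.322 for long-term and -0.173 for acute restriction. The long-term difference was 0.933 without the libraries numbered 1, and the acute difference was 0.108 without them. Leaving out 1 library gave 0.573 to 2.70, -0.950 to 1.18, -1.45 to 0.671 and 0.0862 to 1.18 points, with 0.521 for long-term restriction without long-term library 4. Of 224 single-gene values under 3860 alternatives, 3302 kept their direction and either kept their side of the threshold or had no adjusted p there. A further 546 lost the call, 8 gained it and 4 turned. Alternatives in which a gene did not pass the filter are not counted. Those that turned included Sox6 against Sst with at least 3 Pvalb UMIs (-0.20) and Crhbp against Sst without the libraries numbered 1 (0.18). The others were Ptprt (0.22) and Pdzrn4 (2.62) between restrictions with at least 3 nuclei and without those libraries. The number of nuclei per library limits the group comparisons.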

Other observations

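Parvalbumin nuclei with a UMI of 1 gene were compared with the rest as summed levels, without a test, because the genes were chosen after their values were seen. The 33 nuclei with a Tac1 UMI (a tachykinin gene), of which 24 came from the libraries numbered 1, held Unc5b at 4.11 CPM against 32.7 in the other nuclei and Kcnc2 at 4582 against 3566. The 9 nuclei with a Pthlh UMI held Unc5b at 132 against 19.3 CPM, Syt2 at 50.3 against 154 and Gabrd at 0 against 56.2. The 37 nuclei with an Acan UMI held Syt2 at 182 against 134 CPM and had a median of 15616 UMIs against 13049. The part of depth in these values was not tested.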
